A study of Mus musculus with 10 samples.

Results

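10 marker genes of adult intestinal crypts were read in mouse intestinal organoids labelled as lacking IκBα and in wild type (WT) organoids. They are Lgr5, Ascl2, Smoc2 and Axin2, which mark crypt base cells with active Wnt signalling, Lrig1, Hopx, Tert and Msi1, which were proposed as markers of reserve stem cells, and the surface proteins Prom1 and Cd44. The genes were taken by symbol from the array's annotation, all 10 were found, each had 1 probe set, and the array held 19505 named genes in all. Organoids are epithelial structures kept in culture. Of the arrays, 5 came from organoids labelled knockout (KO) for IκBα and 5 from organoids labelled WT, and every array received RNA of 1 sample. IκBα is the product of Nfkbia and holds NF-kB transcription factors in the cytoplasm. The sources used here do not state how the gene was deleted, the number of animals, or whether replicates are separate cultures, and the labels carry a mark, P6, that they do not explain. The p-values below therefore cover only variation among these 10 samples, part of which may be technical. Levels are log2 values made by the authors, a change is the KO mean minus the WT mean on that scale, and a gene passed where limma's adjusted p was under 0.05.

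In the adult small intestine, Lgr5-positive crypt base columnar cells divide and replace the epithelium, and their identity depends on Wnt and R-spondin signals from Paneth cells and from the tissue beneath. Reserve stem cells are described as cells that divide slowly or refill the crypt after injury, and many of their markers are also made by crypt base columnar cells or by differentiated cells. Cd44 and Axin2 are transcribed in response to Wnt signalling, and Prom1 is found across much of the crypt.

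Nfkbia averaged 5.06 ± 0.31 in KO arrays and 9.19 ± 0.38 in WT arrays (SD, n = 5 each). Eif2s3y, Uty and Kdm5d, which lie on the Y chromosome, changed by -5.20, -4.47 and -2.42 with no overlap of the groups, so the effect of the genotype and of this difference cannot be told apart. Array medians ran from 6.03 to 6.23 over all probe sets. The epithelial marker Epcam ran from 10.67 to 10.93 in KO arrays and from 10.88 to 11.30 in WT arrays. It did not pass, except without WT replicate 4, where it was lower in KO. Of 8 epithelial markers 4 were higher and 3 lower in KO, with changes from -2.16 (Cdx2) to 1.43 (Krt18). The 4 endothelial markers stood at mean levels of 4.31 to 4.69 in KO arrays and 4.51 to 4.67 in WT arrays, and the 7 measured markers of fibroblasts and smooth muscle at 5.18 to 5.53 in KO and 5.40 to 5.64 in WT. The medians of 5222 negative control probe sets were 4.30 to 5.10, and their 95th percentiles 7.17 to 7.77. A group mean under the lowest of these percentiles, 7.17, is called near the negative controls below. There a fold change may understate the difference, and with both groups near them its size is uncertain. WT replicate 4 was the lowest WT array for most of the markers, and results that change without it are given both ways.

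7 of the 10 markers passed the test, and they went both ways. Cd44 and Prom1 rose, and Smoc2, Msi1, Hopx, Ascl2 and Lrig1 fell, while Lgr5, Axin2 and Tert did not pass. Over all 19572 named probe sets 26.7% passed, 15.0% higher and 11.7% lower in KO, so a call as such is common in this comparison. For 5 markers the 5 KO and the 5 WT arrays did not overlap, with KO above WT for Cd44 and Prom1 and below it for Smoc2, Hopx and Ascl2. The groups did not overlap for 21.4% of all named probe sets, 12.3% with KO above and 9.07% with KO below. In whole cultures, fewer cells that make a transcript and less of it per cell cannot be told apart. The plot of the levels in each array shows the spread of both groups for every marker.

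**Figure D1:**
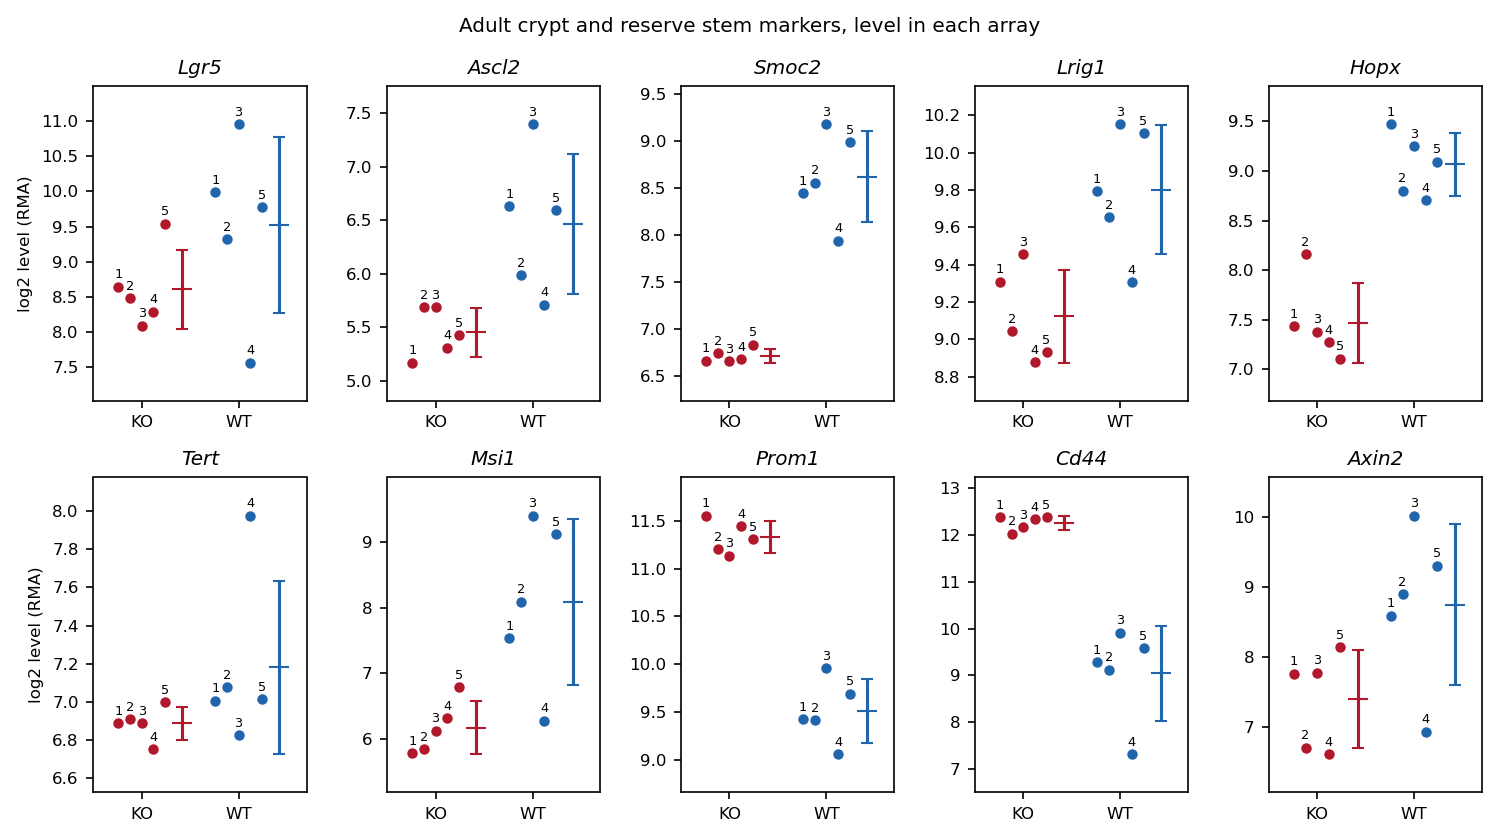
Level of each marker in each array (log2, RMA) in KO organoids (red, left) and WT organoids (blue, right). Numbers are replicates, and bars show the mean and SD of 5 arrays. Each panel has its own axis, which does not start at 0. Cd44 and Prom1 lie higher in every KO array, Smoc2, Hopx and Ascl2 lie lower in every KO array, and WT replicate 4 is the lowest WT array for 9 of the 10 genes.

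Lgr5, the R-spondin receptor that defines crypt base columnar cells, stood at 8.65, 8.48, 8.09, 8.29 and 9.54 in KO replicates 1 to 5, against 9.99, 9.32, 10.96, 7.56 and 9.78 in WT replicates 1 to 5. The groups overlapped at both ends: WT replicate 4 lay below every KO array, and KO replicate 5 lay above WT replicate 2. The change of -0.91 (95% interval -2.05 to 0.22) did not pass (limma, adjusted p = 0.236). Without WT replicate 4 it was -1.40 (limma, adjusted p = 0.0129), and without WT replicate 3 it was -0.55 (limma, adjusted p = 0.451). The interval holds both a lower and a slightly higher level in KO, so a difference in Lgr5 was not resolved by these arrays.

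Ascl2, a basic helix-loop-helix transcription factor that crypt base columnar cells need, fell. It stood at 5.17, 5.68, 5.68, 5.31 and 5.42 in KO replicates 1 to 5, against 6.63, 5.99, 7.40, 5.71 and 6.59 in WT replicates 1 to 5. Every KO array lay below every WT array, but the gap between the nearest arrays was only 0.02. The change was -1.01 (standard error 0.27, limma adjusted p = 0.016). Ascl2 was dim: on average 32.7% of the negative control probe sets were brighter in a KO array and 14.8% in a WT array. The RefSeq promoter windows of the markers, the 250 bases before a transcript start in GRCm38.p6, covered 7 of the 10 genes. The window of Ascl2, chr7:142969265-142969514 on the minus strand, is shown because Ascl2 is the transcription factor of the set.
Ascl2: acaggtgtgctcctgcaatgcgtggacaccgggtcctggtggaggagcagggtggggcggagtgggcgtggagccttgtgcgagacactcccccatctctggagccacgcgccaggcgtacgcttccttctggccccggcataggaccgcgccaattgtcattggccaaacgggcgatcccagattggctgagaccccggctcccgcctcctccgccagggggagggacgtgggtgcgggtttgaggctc
It was rich in G and C (67.6%, against a median of 52.4% over all 32851 windows) and held 19 CG pairs, against a median of 6.

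Smoc2, a secreted calcium-binding matrix protein of crypt base cells, fell and was almost the same in all KO arrays. It stood at 6.66, 6.74, 6.65, 6.67 and 6.83 in KO replicates 1 to 5, against 8.45, 8.56, 9.18, 7.94 and 8.99 in WT replicates 1 to 5. The nearest arrays of the groups were 1.11 apart, and WT replicate 4 lay above all KO arrays too. The change was -1.91 (standard error 0.20, limma adjusted p = 2.06e-05). On average 10.3% of the negative control probe sets were brighter in a KO array and 2.13% in a WT array. The SD was 0.07 in KO and 0.49 in WT.

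Axin2, a scaffold of the complex that degrades β-catenin and a feedback target of Wnt signalling, stood at 7.76, 6.70, 7.77, 6.61 and 8.14 in KO replicates 1 to 5. It stood at 8.59, 8.89, 10.02, 6.93 and 9.30 in WT replicates 1 to 5. 4 of the WT arrays lay above every KO array, and WT replicate 4 lay among the KO arrays. The change of -1.35 (95% interval -2.46 to -0.24) did not pass after adjustment over all genes (limma, unadjusted p = 0.0218, adjusted p = 0.0729), and without WT replicate 4 it was -1.80 (limma, adjusted p = 0.00451). Axin2 spread most among the markers in KO arrays, with an SD of 0.69 in KO and 1.15 in WT.

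Of the proposed reserve cell markers, Hopx, an atypical homeodomain protein that does not bind DNA, fell. It stood at 7.43, 8.16, 7.38, 7.27 and 7.11 in KO replicates 1 to 5, against 9.47, 8.80, 9.25, 8.70 and 9.10 in WT replicates 1 to 5. No arrays overlapped, and Hopx was the only marker that spread less in WT arrays than in KO arrays (SD 0.40 in KO and 0.32 in WT). The change was -1.60 (standard error 0.21, limma adjusted p = 0.000115), and it was -1.69 without WT replicate 4.

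Msi1, an RNA-binding protein of the Musashi family, fell as well. It stood at 5.79, 5.85, 6.13, 6.32 and 6.79 in KO replicates 1 to 5, against 7.54, 8.10, 9.40, 6.28 and 9.12 in WT replicates 1 to 5. WT replicate 4 lay within the KO arrays, and the other 4 WT arrays lay above all of them. The change was -1.91 (standard error 0.50, limma adjusted p = 0.0143). It was -2.37 without WT replicate 4 (limma, adjusted p = 0.000669). On average 18.0% of the negative control probe sets were brighter in a KO array and 5.59% in a WT array.

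Lrig1, a membrane protein that restrains EGF receptor signalling, fell by a smaller amount. It stood at 9.31, 9.04, 9.46, 8.88 and 8.93 in KO replicates 1 to 5, against 9.79, 9.65, 10.15, 9.31 and 10.10 in WT replicates 1 to 5. KO replicates 1 and 3 reached above WT replicate 4, and the other WT arrays lay above all KO arrays. The change was -0.68 (standard error 0.18, limma adjusted p = 0.0141), a 1.60-fold difference.

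Tert, the reverse transcriptase of telomerase, stood at 6.89, 6.91, 6.89, 6.75 and 7.00 in KO replicates 1 to 5. It stood at 7.01, 7.08, 6.83, 7.98 and 7.02 in WT replicates 1 to 5, so that the groups overlapped and WT replicate 4 lay above the rest. The change was -0.29 (95% interval -0.71 to 0.12, limma adjusted p = 0.303), and -0.09 without WT replicate 4 (limma, adjusted p = 0.552). On average 8.66% of the negative control probe sets were brighter in a KO array and 6.43% in a WT array. None of the 5 measured partners of Tert in the telomerase complex passed (limma, smallest adjusted p = 0.0587, for Nop10, and unadjusted p under 0.05 for 1 of them). Of these partners 1 fell without KO replicate 2 or 3, with a replicate block and under 4 of the other settings, and 2 fell without WT replicate 4. The promoter window of Tert, chr13:73626661-73626910 on the plus strand, is shown because it was the only marker window with a match to a motif searched. Capitals mark the match to the NF-kB consensus.
Tert: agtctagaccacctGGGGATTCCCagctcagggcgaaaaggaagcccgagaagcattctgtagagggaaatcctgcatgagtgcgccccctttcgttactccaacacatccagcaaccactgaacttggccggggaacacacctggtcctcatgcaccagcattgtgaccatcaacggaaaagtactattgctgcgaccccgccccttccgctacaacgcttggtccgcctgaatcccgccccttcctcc
That match lies 227 to 236 bases before the start. The NF-kB consensus had a match on either strand in 7.25% of all windows, and CAGCTG, a motif bound by basic helix-loop-helix factors, in 13.0%. Any of the TCF motifs CTTTGAA or CTTTGAT or CTTTGTA or CTTTGTT was found in 14.8% of them. The other 8 marker windows had no match to any of these letters, and no matches overlapped.

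Both surface markers rose. Prom1, a membrane protein of cell protrusions also known as CD133, stood at 11.55, 11.20, 11.14, 11.45 and 11.31 in KO replicates 1 to 5, against 9.42, 9.42, 9.96, 9.06 and 9.69 in WT replicates 1 to 5. The nearest arrays of the groups were 1.18 apart, and the change was 1.82 (standard error 0.16, limma adjusted p = 5.07e-06), a 3.53-fold difference.

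Cd44, a receptor for the matrix polymer hyaluronan, stood at 12.37, 12.03, 12.16, 12.33 and 12.37 in KO replicates 1 to 5, against 9.29, 9.12, 9.91, 7.32 and 9.59 in WT replicates 1 to 5. The SD was 0.15 in KO and 1.01 in WT. The nearest arrays were 2.11 apart, and the change was 3.21 (standard error 0.39, limma adjusted p = 6.99e-05), a 9.23-fold difference. WT replicate 4 was again the lowest, and without it the change was 2.78. Cd44 had the largest change of the 10 markers, in the direction opposite to Ascl2 and Smoc2. Its promoter window, chr2:102901666-102901915 on the minus strand, is shown for that reason; it held 5 CG pairs and no match to the motifs above.
Cd44: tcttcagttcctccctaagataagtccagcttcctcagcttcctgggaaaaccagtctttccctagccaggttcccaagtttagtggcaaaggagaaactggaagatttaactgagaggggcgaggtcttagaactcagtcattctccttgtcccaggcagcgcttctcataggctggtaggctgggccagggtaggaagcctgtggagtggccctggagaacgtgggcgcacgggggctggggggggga

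**Figure D2:**
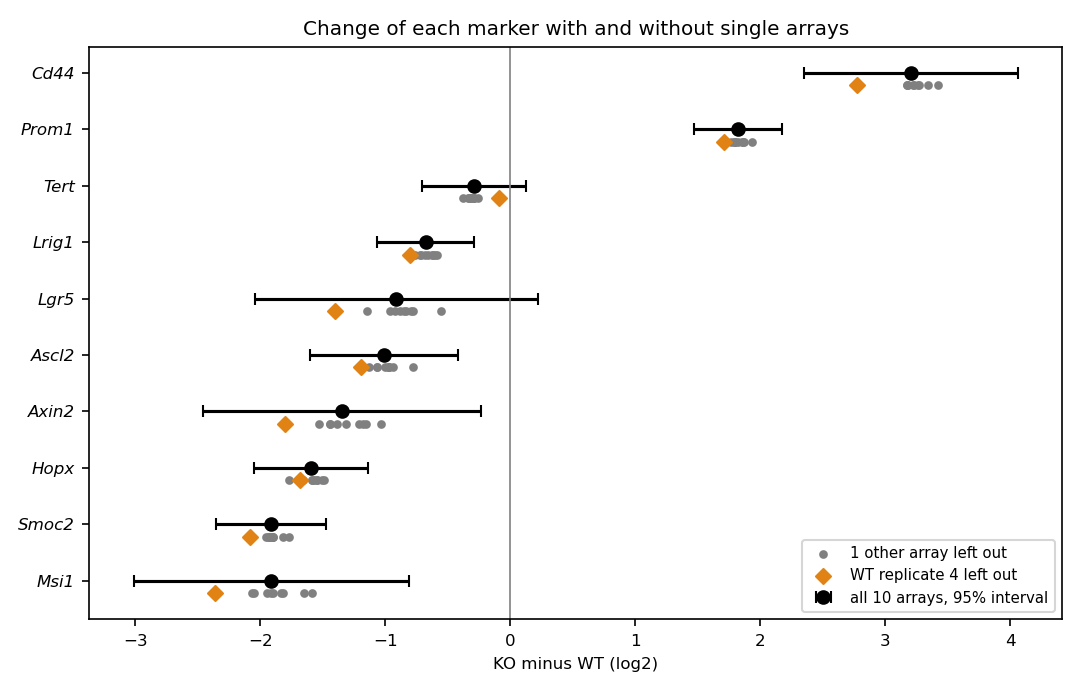
KO minus WT change (log2) of each marker with its 95% interval from limma (black, 5 KO and 5 WT arrays), with WT replicate 4 left out (orange) and with any 1 of the other 9 arrays left out (grey). No marker changed sign. Leaving out WT replicate 4 gave -1.40 for Lgr5, against -0.91 with all arrays, and -1.80 for Axin2, against -1.35, and moved Cd44 and Prom1 towards 0.

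The WT arrays differed among themselves more than the KO arrays did for 9 of the 10 markers, and the median ratio of the WT SD to the KO SD was 2.54. Over all named probe sets that ratio was 1.04 and the WT SD was the higher for 52.7%. The KO means of Ascl2, Smoc2, Msi1 and Tert were near the negative controls, and the part of such low levels in the ratio was not tested. WT replicate 4 was the lowest WT array for 9 markers, against 26.1% of named probe sets, and WT replicate 3 was the highest for 8, against 22.1%. The same order ran through markers that rose and markers that fell in KO, since Cd44 and Prom1 were also lowest in WT replicate 4 and highest in WT replicate 3.

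Levels of cell division genes differed between arrays of each group. Averaged over 14 measured proliferation genes and centred on the 10 arrays, they were -0.98, 0.34, 0.97, -1.11 and -1.69 in KO replicates 1 to 5, against 0.79, 0.51, 1.08, -0.62 and 0.72 in WT replicates 1 to 5. Among WT arrays they were lowest in replicate 4 and highest in replicate 3. The 7 absorptive enterocyte markers stood at -3.06, -2.72, -2.82, -2.56 and -3.02 in KO replicates 1 to 5, against 1.58, 3.37, 2.30, 3.74 and 3.20 in WT replicates 1 to 5, and were highest in WT replicate 4. Of the KO arrays, replicate 5 was the lowest for proliferation genes and the highest for Lgr5, Smoc2, Axin2, Msi1, Tert and Cd44, and it was the lowest for Hopx. Replicate 3, the highest KO array for proliferation genes, was the highest for Ascl2 and Lrig1 and the lowest for Lgr5, Smoc2 and Prom1. The part of these differences in the marker levels was not tested. Of the proliferation genes 1 passed, Pcna (-0.78, limma adjusted p = 0.0453), and none rose. The changes of these genes ran from -1.57 to -0.47, with a median of -0.95, against -0.01 over all named probe sets. Without KO replicate 3 the number that fell was 8, and without any 1 of KO replicates 1, 4 and 5 or WT replicates 1, 2, 3 and 5 it was 0.

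**Figure D3:**
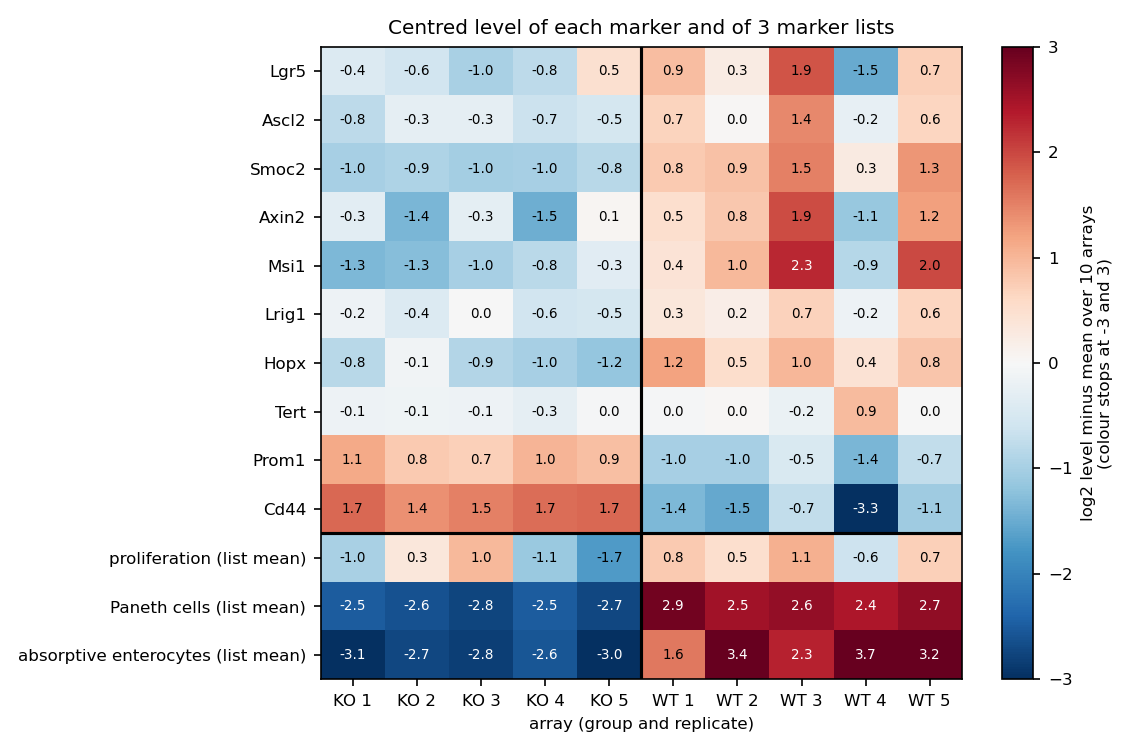
Level of each marker minus its mean over the 10 arrays (log2), for KO replicates (left) and WT replicates (right), with the mean over the proliferation, Paneth cell and absorptive enterocyte lists below. Lgr5, Ascl2, Smoc2, Axin2, Msi1 and Lrig1 are lowest among WT arrays in replicate 4 and highest in replicate 3, as are Prom1 and Cd44.

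Genes with the most similar profile over the 10 arrays were sought for the 8 markers whose SD over all arrays was above 0.5, by the root mean square difference between centred log2 levels. Nearest to Lgr5 were Cnn3 (0.44), an actin-binding calponin that is also on the list of other crypt base columnar genes, Klhl23 (0.50) and Stra6l (0.51), and the marker nearest to it was Axin2 (0.51). Lgr5 was in turn the gene nearest to Axin2, followed by Gkn3 (0.52), a gastrokine also on that list, and Angpt2 (0.53), a ligand of the Tie2 receptor. Gkn3 was also among the 3 nearest to Msi1 (0.45), after Sorcs2 (0.33) and the cationic amino acid transporter Slc7a2 (0.44). Nearest to Ascl2 were the folate cycle enzyme Shmt1 (0.23), the nucleoside transporter Slc29a1 (0.23) and Qsox2 (0.23). Smoc2 lay nearest to Gpld1 (0.18), Dnah8 (0.21) and Glt1d1 (0.21), and Hopx to the protease Prss12 (0.18), Cracr2a (0.24) and Arhgap31 (0.26). Prom1 lay nearest to Tusc3 (0.16), the transcription factor Runx1 (0.19) and Fam107b (0.19), and Cd44 to the efflux pump Abcc4 (0.28), Cibar1 (0.34) and the choline transporter Slc44a2 (0.37). These distances describe the 10 arrays in their 2 groups, and no test was made of them. Both means of Klhl23, Gkn3, Angpt2, Sorcs2, Slc7a2, Dnah8 and Glt1d1 were near the negative controls. So were the KO means of Slc29a1, Qsox2, Gpld1, Prss12, Cracr2a and Arhgap31 and the WT means of Cibar1 and Slc44a2.

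Related genes of the same families went both ways. Smoc2 fell, and Smoc1, the other SMOC matrix protein, rose by 1.08 (standard error 0.27, limma adjusted p = 0.0121), at 6.11 ± 0.58 in KO and 5.04 ± 0.39 in WT (SD, n = 5 each), both near the negative controls. Msi1 fell, and Msi2, the other Musashi protein, rose by 1.04 (standard error 0.13, limma adjusted p = 8.96e-05), at 9.86 ± 0.18 in KO and 8.82 ± 0.22 in WT (SD, n = 5 each). Lrig3, like Lrig1, fell, by 4.42 (standard error 0.36, limma adjusted p = 2.61e-06), at 5.26 ± 0.86 in KO and 9.68 ± 0.38 in WT (SD, n = 5 each), with the KO mean near the negative controls. Lrig2 changed by 0.37 and did not pass (limma, adjusted p = 0.058), except without WT replicate 1 or WT replicate 4 (limma, smallest adjusted p = 0.0322). Prom2 changed by 0.41 in the same direction as Prom1 (limma, adjusted p = 0.0262), a call lost without any 1 of 4 arrays (KO replicates 3 and 4, WT replicates 1 and 3; limma, adjusted p up to 0.0637). Lyve1, a hyaluronan receptor that shares the Link domain with Cd44 and is best known from lymphatic vessels, fell by 1.92 (limma, adjusted p = 1.65e-05). The R-spondin receptors Lgr4 (-0.26) and Lgr6 (0.03), Axin1 (-0.25, which passed without WT replicate 4) and Ascl3 (-0.08) did not pass, and the 95% interval of Lgr4 ran from -0.73 to 0.20. Both groups were also near the negative controls for Prom2, Lrig2, Lgr6 and Ascl3, and the KO group for Lyve1. The differences between a marker and its relative were not tested.

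**Figure D4:**
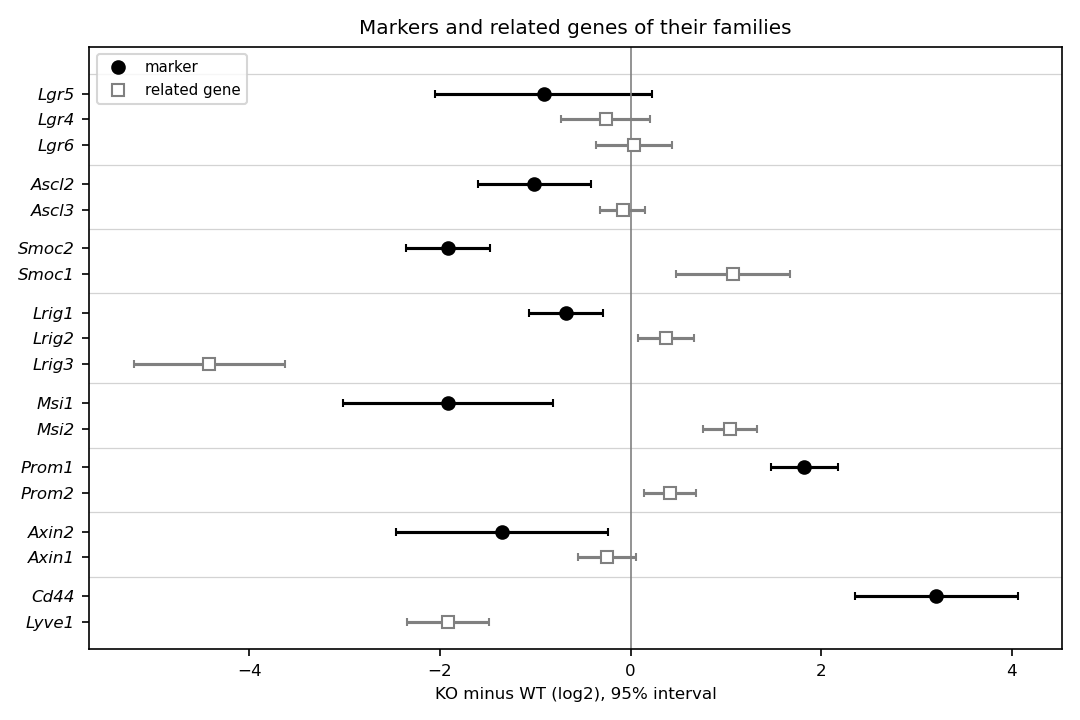
KO minus WT change (log2) of 8 markers (filled circles) and of related genes of their families (open squares), with 95% intervals from limma (5 KO and 5 WT arrays). Smoc1 and Msi2 lie above 0 where Smoc2 and Msi1 lie below it, and Lrig3 lies at -4.42 where Lrig1 lies at -0.68. The KO means of Lrig3, Smoc2 and Msi1 and both means of Smoc1 were near the negative controls.

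Other genes of crypt base columnar cells went both ways, as the markers did. Of 22 measured genes on a list of such cells that leaves out the 10 markers, 6 rose, 6 fell and 10 did not pass, with a median change of -0.08 against -0.01 over all named probe sets. The water channel Aqp4 fell by 4.49 (limma, adjusted p = 8.03e-07) and the nuclear receptor Esrrg by 2.48 (limma, adjusted p = 1.72e-05), and the homeodomain repressor Tgif1 rose by 1.73 (limma, adjusted p = 2.38e-05). The KO means of Aqp4 and Esrrg, 4.58 and 5.02, were near the negative controls. The counts rested on single arrays: 2 genes rose with KO replicate 3 left out, 3 rose with KO replicate 4 or WT replicate 2 left out, and 3 fell without any 1 of KO replicates 1, 4 and 5 or WT replicates 1, 2, 3 and 5. Without WT replicate 4, 5 rose and 8 fell. WT replicate 4 was the lowest WT array for 17 of the 22 and WT replicate 3 the highest for 17.

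Among 9 further genes linked to reserve or slow-cycling cells, 4 rose, 1 fell and 4 did not pass, with a median change of 0.75. Over all named probe sets 26.7% passed, and the median change was -0.01. Mex3a, an RNA-binding protein of slow-cycling Lgr5-positive cells, rose by 1.26 (limma, adjusted p = 0.000156), the polycomb protein Bmi1 by 0.92 (limma, adjusted p = 0.0169) and the kinase Dclk1, which also marks tuft cells, by 1.29 (limma, adjusted p = 0.0217). The WT means of Mex3a and Dclk1 were near the negative controls. The other 3 tuft cell markers, Trpm5 (-0.40), Avil (-0.33) and Pou2f3 (-0.25), did not pass, and both means of each were near the negative controls. Avil fell without KO replicate 2 or WT replicate 3, and Trpm5 fell without KO replicate 1. The call of Dclk1 depended on KO replicate 4 and on WT replicate 2 (limma, adjusted p up to 0.0563 with either left out), and without either of them 2 genes of the list rose. The gene that fell, the cell cycle inhibitor Cdkn1c (-0.36, limma adjusted p = 0.049), passed in 3 of the 10 fits with 1 array left out, which left out KO replicate 2, WT replicate 1 and WT replicate 3 in turn.

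Of 16 measured Wnt target and feedback genes other than the markers, 3 rose, 2 fell and 11 did not pass, a share close to the 26.7% of all named probe sets that passed, with a median change of -0.00324. The transcription factor Sox4 rose by 1.79 (limma, adjusted p = 0.000246), the intestinal homeodomain factor Cdx1 fell by 3.01 (limma, adjusted p = 7.38e-09) and Rgmb, a co-receptor for bone morphogenetic proteins, fell by 0.76 (limma, adjusted p = 0.00972). The KO mean of Cdx1 was near the negative controls. Leaving out KO replicate 3, KO replicate 4, KO replicate 5 or WT replicate 2 left 1 gene that rose. Of the genes that passed here, Sox9, Znrf3 and Rgmb are also counted among the crypt base columnar genes, and Sox9 among the reserve cell genes. Some genes that did not pass here are on the crypt base columnar list as well. These lists are thus not separate sets of genes.

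Receptors that bind Wnt ligands or R-spondins changed in most cases. Of 8 measured 4 rose, 2 fell and 2 did not pass, while 26.7% of all named probe sets passed. Without any 1 of KO replicates 1, 3, 4 and 5 or WT replicate 2, 3 receptors rose. Fzd1 rose by 2.45 (limma, adjusted p = 1.14e-06), and Fzd5, a Wnt receptor that Paneth cells need, and the co-receptor Ror2 fell by 1.09 and 2.86 (limma, adjusted p = 0.00034 and 1.32e-08). The WT mean of Fzd1 and the KO mean of Ror2 were near the negative controls. Of 5 ligands that Paneth cells offer to their stem cell neighbours, Wnt3 fell by 0.72 (limma, adjusted p = 0.000692), Dll4 by 1.48 (limma, adjusted p = 0.0228) and Dll1 by 1.07 (limma, adjusted p = 0.044), and Egf (0.00) and Tgfa (0.28) did not pass. Both means of Wnt3 and Egf, the KO mean of Dll4 and the WT mean of Tgfa were near the negative controls. Of the 3, Wnt3 alone passed whichever array was left out, and 1 ligand fell when KO replicate 2, KO replicate 3, WT replicate 3 or WT replicate 5 was left out. Without WT replicate 4 Tgfa passed and was higher in KO (limma, adjusted p = 0.0394). Of 6 Paneth cell markers 5 fell and 1, the metalloproteinase Mmp7, rose in the same arrays. The mean level of all 6 was 5.92 to 6.19 in KO arrays and 11.10 to 11.58 in WT arrays. Mmp7 averaged 11.06 in KO and 8.01 in WT, and the KO means of the 5 that fell were near the negative controls. The part of the Paneth cell markers in the ligand and marker levels was not tested.

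Beside Cd44, 2 of 8 measured genes of hyaluronan synthesis and binding rose and 1 fell. The membrane protein Cemip2 and the hyaluronidase Hyal2, which act in hyaluronan turnover, rose by 1.15 and 0.59 (limma, adjusted p = 3.66e-05 and 0.00196), Lyve1 fell as given above, and the synthases Has1 (0.25), Has2 (0.05) and Has3 (0.05) did not pass. Without WT replicate 4 Has1 passed and was higher in KO (limma, adjusted p = 0.0195). Both means of each synthase and the WT mean of Cemip2 were near the negative controls. Cd44 is also made by leukocytes. Of 4 measured leukocyte markers 1 rose, the integrin Itgam (1.56, limma adjusted p = 0.00712), and the pan-leukocyte gene Ptprc averaged 5.49 ± 0.10 in KO arrays and 5.70 ± 0.21 in WT arrays (SD, n = 5 each), all means near the negative controls. Itgam stood at 8.37 in KO replicate 1, against 6.14 to 6.64 in the other KO arrays. The mean level of the 4 was 5.41 to 6.08 in KO arrays, highest in KO replicate 1, and 5.17 to 5.44 in WT arrays. Its part in the Cd44 level was not tested.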

How the data were processed

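Total RNA of 10 organoid samples (5 KO, 5 WT) was labelled with biotin from 100 ng each, per the labels' protocols, and hybridised to 1 array each. The authors deposited log2 levels, and RMA and limma are the tools listed per the submitters' processing notes. No source used here states their versions, a genome build or whether arrays were normalized together. Of 28846 probe sets, 6640 were controls and 19572 had 1 gene symbol in the platform's annotation. A linear model in limma 3.58.1 (R 4.3.3) was fitted to all probe sets, with Benjamini-Hochberg adjustment over the named ones. The probe set with the highest mean stood for a gene, and every marker had 1. Script steps were tested on simulated data. The 10 markers, 19 further gene lists and the rule for named genes (the markers, their relatives, the 3 smallest p of each list, the Paneth ligands and the 3 nearest profiles) were chosen with earlier results of these data known. Genes beyond that rule (the hyaluronan synthases, Cdkn1c, Pou2f3, Mmp7, Epcam, Sox9, Znrf3 and the Y-linked genes) were named after their values were seen. Motifs were chosen likewise. Promoter windows are RefSeq's, GRCm38.p6. Tables used Python 3.11.15 and pandas 2.3.3. Alternatives changed normalization, filter, variance model, weights, adjustment, probe set rule and pairing, or left out an array. Whether replicate numbers pair the samples is not known, and the main fit did not pair them. Same-numbered arrays correlated at -0.07 to 0.36 in their deviations, over 0.1 for 2 of 5 pairs, which does not settle it.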

Additional observations from a re-analysis of the deposited data

Results flagged for a closer look

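Of 20 genes (the markers and 10 measured relatives) in 2 groups each, 1 value lay far from the other 4 of its group, judged by its gap to the nearest of them over the group's range (Dixon): Tert stood at 7.98 in WT replicate 4, against 6.83 to 7.08 in the other WT arrays (ratio 0.78, critical value 0.71). Chance gives about 1 in 20 groups. The Tert probe set was the only marker probe set that was higher in WT replicate 4 than in the other WT arrays.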

How the results depend on the processing

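9 alternatives to the processing and 10 fits that left out 1 array gave 190 values for the 10 markers. None changed sign and no call was lost, and 4 values passed that had not: Lgr5 without WT replicate 4 (-1.40), and Axin2 without WT replicate 4 (-1.80), with array weights (-1.59; limma, adjusted p = 0.0154) and with replicate number as a block (-1.35; limma, adjusted p = 0.0122). With the replicate block 2 markers were higher and 6 lower, and 4913 of all probe sets passed, against 5224. Of 10 arrays, 4 correlated best with the array of their own number in the other group, which does not settle whether the numbers pair the samples. The largest adjusted p of a called marker with 1 array left out was 0.0396, for Ascl2. Over all alternatives the number of markers that rose was 2 and that of markers that fell 5 to 7. The number of probe sets that passed was 4344 to 5187 with 1 array left out. Of 722 counts for the other lists, 648 were within 1.5 times the value given. The number of arrays limits the precision, and levels near the negative controls (means of Ascl2, Smoc2, Msi1 and Tert in KO and of Ascl2 in WT) limit what size of difference could be seen. Over 5% of the negative controls were also brighter than Hopx and Axin2 in KO arrays (5.29% and 6.05%) and than Msi1 and Tert in WT arrays (5.59% and 6.43%).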
